A study of Homo sapiens with 9 samples.

Results

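The zinc finger genes of chromosome 19 were examined in HCT116 cells, a human colorectal cancer line, as controls, after activin, and after activin followed by HGF (hepatocyte growth factor). Members were the genes named ZNF with a number and lying on chromosome 19 that had at least 90 counts over the 9 RNA-seq libraries. This rule took 172 of 226 such genes, out of 33861 genes in the table. The other 54 had fewer counts. At the edge of the rule, ZNF763, ZNF773 and ZNF807P were inside with 108, 115 and 116 counts, and ZNF813, ZNF439 and ZNF404 were outside with 85, 76 and 76 counts. Of the members, 166 had a protein-coding transcript, and the other 6 (ZNF56, ZNF137P, ZNF321P, ZNF702P, ZNF807P and ZNF887P) are annotated as pseudogenes.

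The study compared 3 groups of 3 libraries of the same line. The first was the control, labelled NC. The second, labelled Activin, received activin A at 100 ng/mL for 5 days. The third, labelled Activin+HGF, received the same activin treatment and then HGF at 20 ng/mL for another 5 days, so HGF and the later time cannot be told apart. The culture time of the controls is not given in the sources used here, so treatment and time in culture may also be mixed in the comparisons with NC. Cells treated with HGF alone were not analysed here. The labels do not say whether the replicate libraries came from separate cultures, so the p-values measure only the spread between these libraries.

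Most zinc finger genes of chromosome 19 encode proteins with a KRAB domain at the N-terminus and a long row of C2H2 zinc fingers at the C-terminus. The fingers read DNA, many of them in retrotransposons, and the KRAB domain recruits TRIM28 (KAP1), which brings the methyltransferase SETDB1 and heterochromatin proteins to the site. The genes multiplied by tandem duplication and stand in clusters, and the clusters themselves carry repressive histone methylation. A smaller number of members carry fingers without KRAB and are not thought to act through TRIM28.

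Total counts ranged from 57453977 to 77016167 per library. Of the colorectal markers, EPCAM, CDH1, KRT8, KRT18, KRT19 and CDX2 were expressed in every library, whereas VIL1 and CDX1 did not exceed 0.14 FPKM in any. Of 5 markers of other cell types, PTPRC, PECAM1 and COL1A2 stayed at or under 0.04 FPKM, and PDGFRB had 0 to 0.06 FPKM in control libraries, 0.23 to 0.34 with activin and 0.06 to 0.14 with activin + HGF. COL1A1 had 2.22 to 2.45 FPKM in control libraries, 4.24 to 5.80 with activin and 2.77 to 3.48 with activin + HGF, and was called higher in Activin against NC (log2 fold change 1.03, edgeR adjusted p = 0.00205). The part of these markers in the members' results was not tested. Activin library 2 and Activin+HGF library 1 stood apart from the other libraries of their groups. Activin library 2 was the lowest of its group for 109 of 172 members and Activin+HGF library 1 for 106. The control group was not even either, with NC library 2 lowest for 85. The main counts are given with and without Activin library 2 and Activin+HGF library 1. In bulk RNA, a smaller share of cells expressing a gene and less RNA per cell cannot be told apart.

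The members were weakly expressed. Their median level, as the mean FPKM over the 9 libraries, was 0.745, against 1.65 for the 20988 genes tested. Only 11 members reached a mean of 5 FPKM. A KRAB A-box motif was found in the translated transcripts of 139 members and was not found in 27. The members with the motif had a median of 0.683 FPKM and those without it 1.96 FPKM, and 10 of the 11 highest members lacked it. ZNF317 was the exception.

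ZNF146, which is made of fingers alone, was the most abundant, with 32.39, 25.02 and 31.35 FPKM in control libraries, 31.86, 15.48 and 15.38 with activin and 10.95, 27.09 and 25.04 with activin + HGF. These groups overlapped. ZNF428 followed, with 18.10 to 21.32 FPKM in control libraries, 19.27 to 29.97 with activin and 21.30 to 27.80 with activin + HGF. ZNF581, ZNF121, ZNF358 and ZNF787 had means over the 9 libraries of 13.3, 9.20, 8.86 and 8.41 FPKM. Of these 6, only ZNF787 passed the test in any comparison.

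Members were more often lower than higher after the full treatment. Activin+HGF against NC compared cells given the sequential treatment with the control. A gene was called when its adjusted p in edgeR's quasi-likelihood test was under 0.05 and its log2 fold change was 1 or more in either direction. By this rule 45 members fell and 4 rose. These are 26.2% and 2.33% of the members, beside 10.2% of all tested genes called lower and 11.3% called higher. The median log2 fold change of the members was -0.86, against -0.03 over all tested genes, and 139 of 172 members had a negative value. In 90 members every Activin+HGF library was below every control library, which is 52.3% of the members and 28.1% of all tested genes. All 45 members that fell were among these 90, which is not a separate result, since the call and the separation use the same libraries. The median fold change of the 45, which were picked by a fold limit, was 3.43.

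The median member was below the control mean in every Activin+HGF library, and lowest in library 1. The members took together 1542 to 1645 CPM (counts scaled to a fixed library size) in control libraries, 1312 to 1568 CPM with activin and 1151 to 1417 CPM with activin + HGF. The last range lay below that of the control libraries and overlapped that of the Activin libraries. Relative to the mean of the control libraries on the log2(CPM + 0.1) scale, the median member stood at -1.09 in Activin+HGF library 1, -0.62 in library 2 and -0.56 in library 3. In the Activin libraries it stood at -0.13, -0.49 and 0.01, with the lowest value in library 2. The number of members at 1 FPKM or more was 78 to 85 in control libraries, 61 to 89 with activin and 36 to 53 with activin + HGF. FPKM carries no TMM factor (the library scaling used for CPM and fold changes). These factors were 1.03 to 1.07 in control libraries, 0.99 to 1.17 with activin and 0.78 to 0.93 with activin + HGF. Falls with activin + HGF therefore look larger in FPKM, here and below, than in the log2 fold changes. Without Activin library 2 and Activin+HGF library 1, 47 members were called lower and 5 higher against NC, and the median log2 fold change of the members was -0.63. Without NC library 3, 27 fell, and without NC library 1, 30 fell.

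**Figure D1:**
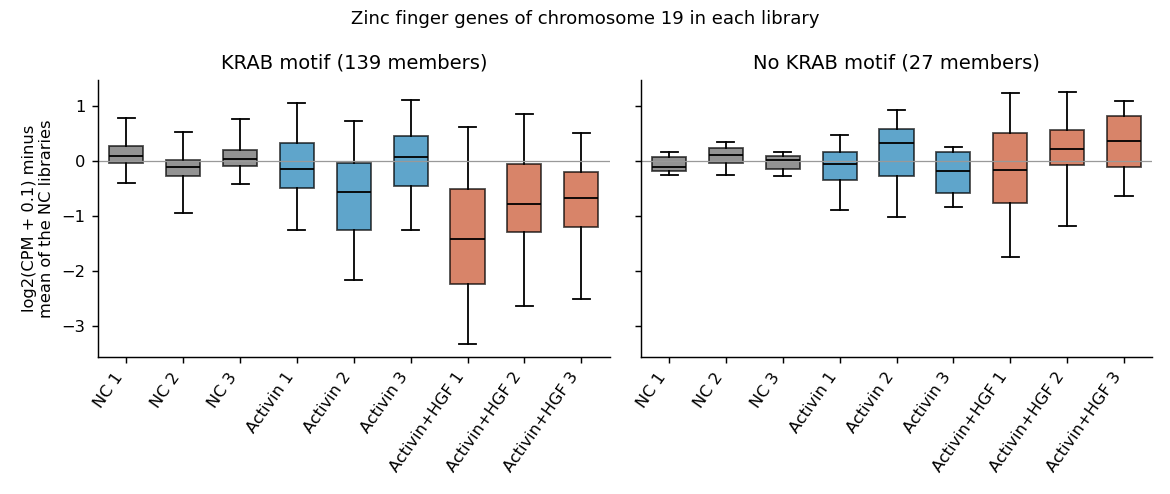
Level of the members in each library, as log2(CPM + 0.1) minus the mean of the 3 NC libraries, for the 139 members with a KRAB motif (left) and the 27 without it (right). Boxes span the quartiles with the median as a line and whiskers reach from the 5th to the 95th percentile; the KRAB members' medians were -1.41, -0.78 and -0.67 with activin + HGF, whereas those of the other members were -0.17, 0.22 and 0.36, a direction that turned with a GC offset.

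Members with and without a KRAB motif were counted apart, and the difference between them was not tested. Of the 139 members with a KRAB motif, 43 fell and 1, ZNF699, rose in Activin+HGF against NC, with a median log2 fold change of -0.96. These are 30.9% and 0.72% of the KRAB members, beside 10.2% and 11.3% of all tested genes. Without Activin+HGF library 1, 32 of the KRAB members fell with a median of -0.76. Of the 27 without the motif, 1 fell and 3 rose, with a median of 0.32 that turned to -0.33 with a GC offset and to -0.04 with limma on log2(FPKM + 0.1). These are 3.70% and 11.1%, and the share that rose is near the 11.3% of all tested genes. The one that fell was ZNF180. The split rests on a match to a sequence pattern, and a missing match does not show that a protein lacks the KRAB domain. Below, members without KRAB are those without a match. The summed level of the KRAB members was 988 to 1105 CPM in control libraries and 574 to 752 CPM with activin + HGF, which did not overlap. The summed level of the members without KRAB was 536 to 549 CPM in control libraries and 575 to 671 CPM with activin + HGF, which also did not overlap. With activin it was 426 to 523 CPM, below the control range. These sums depend on the TMM factors. With library totals in their place, the median log2 fold change of the members without KRAB was 0.07 in Activin+HGF against NC. Within the KRAB members, the 79 with 12 or more fingers had 29 that fell (36.7%) and a median of -1.0. The 60 with fewer fingers had 14 that fell (23.3%) and a median of -0.93.

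The protein types also differed in base composition. The transcripts of the KRAB members had a median GC content of 42.4%, with a range from 34.1% to 59.8%, and those of the members without KRAB 61.3%, from 37.5% to 71.1%. The tested genes were cut into 10 bins of GC content. Their median log2 fold change was -0.30 in bin 2, from 38.9% to 41.5% GC, and 0.61 in bin 10, from 61.7% GC upwards. In bin 2, 14 of 35 KRAB members fell, which is 40% beside 14.5% of all genes there, and their median was -1.07. In bin 3, 5 of 35 fell, which is 14.3% beside 14.5% of all genes there, and their median was -0.89. With a GC offset in the fit, chosen after the data were seen, 34 KRAB members fell and 4 rose with a median of -0.71. With the same offset 3 members without KRAB fell and none rose, so their direction depends on how GC content is treated.

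**Figure D2:**
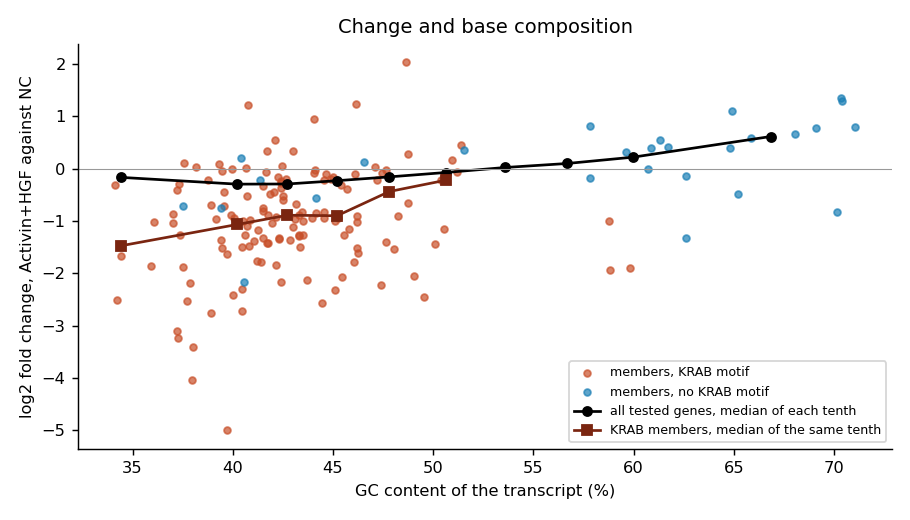
Log2 fold change of each coding member in Activin+HGF against NC (vertical axis) against the GC content of its transcript in percent (horizontal axis), with the median of all tested genes in each of 10 bins of GC (black) and of the KRAB members in the same bins (dark red, where a bin held at least 5 of them); a value under -5 is drawn at -5. The KRAB medians lay below the medians of all genes, at -1.47 against -0.17 in bin 1, while the members without KRAB lay mostly at high GC.

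The median was also negative for zinc finger genes elsewhere and was positive for the other coding genes of chromosome 19. Of the 231 ZNF genes of other chromosomes, 52 fell and 6 rose in Activin+HGF against NC, and their median log2 fold change was -0.56. For the 94 of them with a KRAB motif the counts were 27 and 0, with a median of -0.84. For the 130 of them without a match the counts were 23 and 6, with a median of -0.40. Those that fell were 28.7% and 17.7% of these sets, beside 10.2% of all tested genes. Of the 883 other coding genes of chromosome 19 that were tested, 32 fell and 219 rose, with a median of 0.56. Of the 83 such genes standing inside the clusters, 4 fell and 15 rose, with a median of 0.55. With the GC offset the medians of the ZNF genes of other chromosomes and of the other coding genes of chromosome 19 were -0.51 and 0.12. The differences between these sets were not tested.

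**Figure D3:**
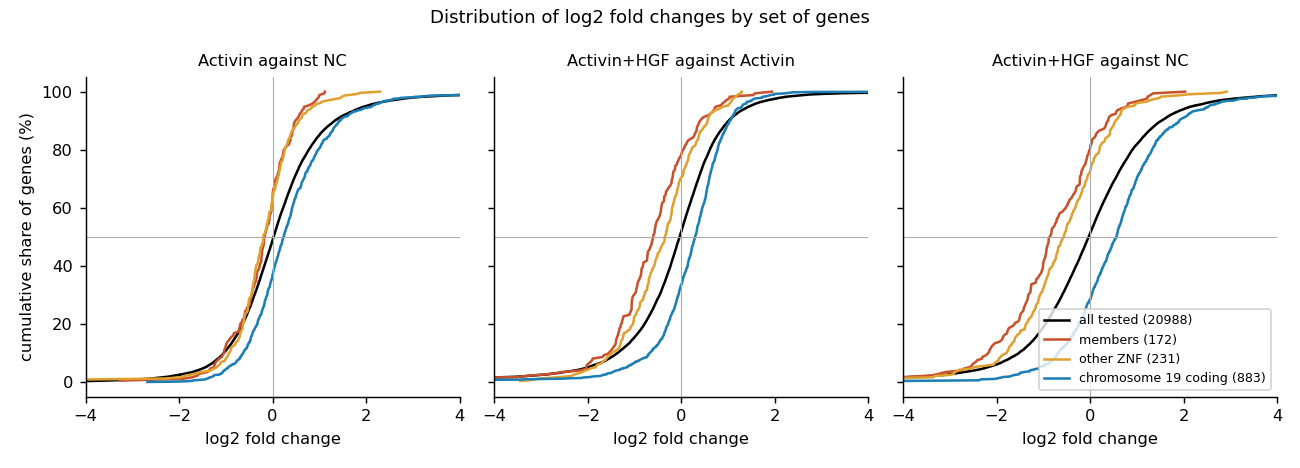
Cumulative share of genes in percent (vertical axis) against log2 fold change (horizontal axis) for the 172 members, the 231 ZNF genes of other chromosomes, the 883 other coding genes of chromosome 19 and the 20988 genes tested, in the 3 comparisons, with grey lines at 0 and at 50%. In Activin+HGF against NC the medians were -0.86, -0.56, 0.56 and -0.03.

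The members were grouped into 18 clusters wherever the starts of neighbours lay over 1 Mb apart. Coordinates are those of the table, which lay on GRCh38. In the cluster of ZNF546, ZNF780B and ZNF780A (chr19:39984134-40090938), all 3 genes, each with a KRAB motif, fell in Activin+HGF against NC. In the cluster from ZNF807P to ZNF792 (chr19:34542462-34964229), 5 of 6 members fell. In the one from ZNF85 to ZNF100 (chr19:20923222-21767579), 4 of 8 fell. ZNF546 and ZNF807P, counted in the first 2 of these, had low levels. In the 4 largest clusters, which hold 36, 29, 19 and 17 members, 9, 8, 6 and 6 fell. These are 25%, 27.6%, 31.6% and 35.3%, near the 26.2% of all members, beside 10.2% of all tested genes. In the cluster from ZNF557 to ZNF846 (chr19:7069703-9793180), none of 14 fell and ZNF699 rose.

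The cluster from ZNF628 to ZNF444 (chr19:55476617-56160893) held no member that fell. Its 9 members, ZNF628, ZNF579, ZNF524, ZNF865, ZNF784, ZNF580, ZNF581, ZNF787 and ZNF444, all lack a KRAB motif and all had a positive log2 fold change in Activin+HGF against NC, with a median of 0.80. With the GC offset 4 of the 9 were negative and the median was 0.02, and with limma on log2(FPKM + 0.1) 2 were negative. ZNF628, ZNF524 and ZNF787 rose.

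**Figure D4:**
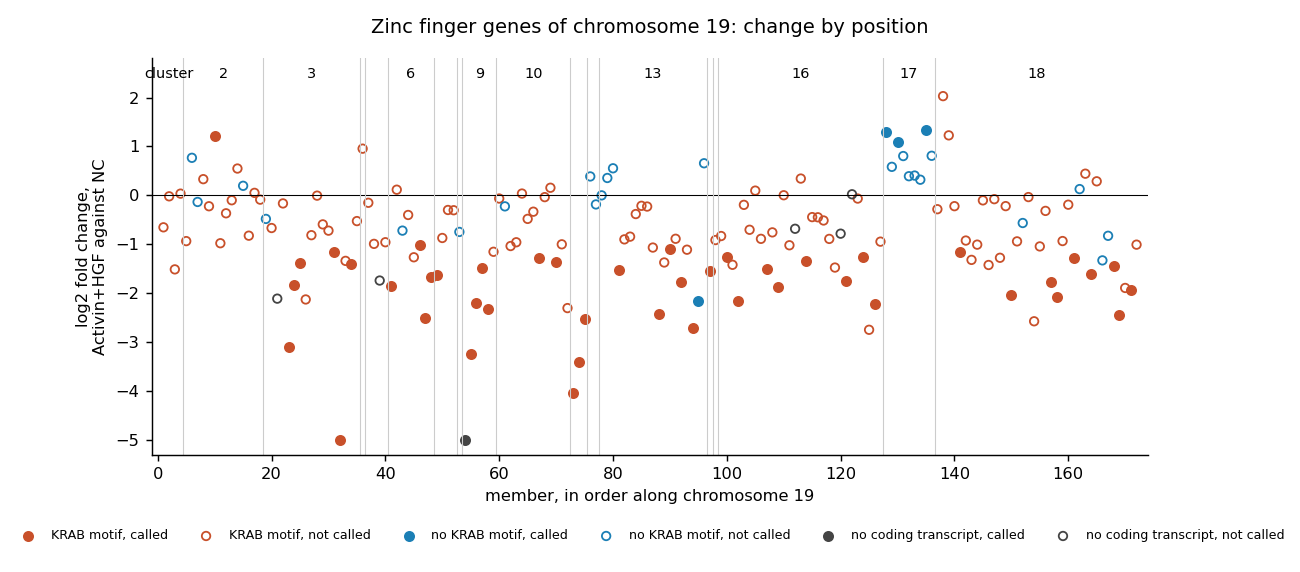
Log2 fold change of each member in Activin+HGF against NC (vertical axis) with the 172 members in their order along chromosome 19 (horizontal axis, not to distance); grey lines separate the 18 clusters, numbers stand over those with at least 5 members, filled points passed the test and a value under -5 is drawn at -5. The 45 members that fell stand in 10 of the 18 clusters, and the 9 members of cluster 17, without KRAB, all lie above 0, whereas 4 of them were below 0 with a GC offset.

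ZNF780A and ZNF780B are neighbouring paralogs with 17 and 21 fingers. ZNF780A (chr19:40069152-40090938, minus strand) had 1.72, 1.43 and 1.61 FPKM in control libraries, 0.97, 0.48 and 1.04 with activin and 0.12, 0.29 and 0.26 with activin + HGF. The 3 groups did not overlap. It fell in each comparison. On the log2 scale it fell by 1.03 with activin (SE 0.308, edgeR adjusted p = 0.0418). In Activin+HGF against Activin it fell by a further 1.5 (SE 0.315, edgeR adjusted p = 0.0157). Over the full treatment it fell by 2.53 (SE 0.324, edgeR adjusted p = 0.000387). The call with activin was lost in 14 of 19 alternatives, and that in Activin+HGF against Activin without Activin library 1 or 3. ZNF780B (chr19:40028260-40056231, minus strand) had 0.74, 0.56 and 0.74 FPKM in control libraries, 0.46, 0.19 and 0.58 with activin and 0.05, 0.04 and 0.07 with activin + HGF. It was 10.6-fold lower in Activin+HGF than in NC (edgeR adjusted p = 0.000253). ZNF546, their neighbour on the opposite strand, chosen after its values were seen, had at most 0.17 FPKM in any control library and 0.01 FPKM in each Activin+HGF library (log2 fold change -4.05, SE 0.597, edgeR adjusted p = 0.000831).

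The promoters of these 3 neighbours are shown because all of them fell. Each runs from 250 bases before to 50 bases after the gene's start in RefSeq on GRCh38.p14. Capitals mark a motif on either strand. The motifs searched were CCAAT, known for NF-Y, then CCGGAAG, known for ETS factors, then CCATNTTG, known for YY1, and the NRF1 motif, read as GCGCA and GCGC with any base between them. The RefSeq start of ZNF546 lies inside the gene as the table gives it.
ZNF780A (chr19:40090894-40091193, minus strand): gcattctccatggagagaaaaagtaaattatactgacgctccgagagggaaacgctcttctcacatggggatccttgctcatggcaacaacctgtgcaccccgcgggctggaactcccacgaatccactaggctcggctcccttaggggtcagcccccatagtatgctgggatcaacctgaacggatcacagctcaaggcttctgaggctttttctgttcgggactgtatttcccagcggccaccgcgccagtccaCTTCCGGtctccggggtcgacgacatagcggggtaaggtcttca
ZNF780B (chr19:40056182-40056481, minus strand): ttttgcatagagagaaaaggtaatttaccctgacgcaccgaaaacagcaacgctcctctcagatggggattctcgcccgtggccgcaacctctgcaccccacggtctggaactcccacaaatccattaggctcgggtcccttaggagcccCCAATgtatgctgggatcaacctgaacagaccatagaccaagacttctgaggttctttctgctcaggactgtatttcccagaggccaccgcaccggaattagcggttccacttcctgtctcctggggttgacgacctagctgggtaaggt
ZNF546 (chr19:39996810-39997109, plus strand): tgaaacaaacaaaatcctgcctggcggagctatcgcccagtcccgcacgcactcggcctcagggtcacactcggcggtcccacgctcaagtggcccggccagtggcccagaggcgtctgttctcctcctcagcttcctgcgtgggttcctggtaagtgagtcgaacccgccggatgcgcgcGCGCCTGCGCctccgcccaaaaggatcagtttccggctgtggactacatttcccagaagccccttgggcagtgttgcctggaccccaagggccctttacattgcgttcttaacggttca
ZNF780A held CCGGAAG, ZNF780B held CCAAT and ZNF546 held the NRF1 motif. By exact match the 3 had none of the searched motifs in common. Near matches were not marked. The promoters of the paralogs ZNF780A and ZNF780B were alike in other stretches, and sequence shared outside these motifs was not searched. Of the members, 147 had a RefSeq promoter. CCGGAAG was found in 62 of the 121 promoters of KRAB members (51.2%), in 7 of the 26 of members without KRAB (26.9%) and in 10.3% of all 35116 promoters of the same length. CCAAT was found in 61.2% of the promoters of KRAB members, 23.1% of those of members without KRAB and 34.6% of all promoters. The NRF1 motif was found in 4.96%, 30.8% and 5.78%, and CCATNTTG in 8.26%, 7.69% and 5.20%. A match describes the letters and is not evidence of binding. The motifs were chosen after the values were seen.

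Other members fell over the full treatment, most of the following by more than 4-fold. ZNF112, a KRAB gene of the cluster from ZNF575 to ZNF296, had 1.15, 0.72 and 0.97 FPKM in control libraries, 0.42, 0.20 and 0.37 with activin and 0.09, 0.10 and 0.16 with activin + HGF. It fell by 1.60 on the log2 scale with activin (SE 0.358, edgeR adjusted p = 0.0118) and by 2.71 over the full treatment (SE 0.375, edgeR adjusted p = 0.000597). The 3 groups did not overlap, and the call with activin was lost without NC library 1. ZNF302 had 1.23 to 1.87 FPKM in control libraries and 0.01, 0.23 and 0.15 FPKM with activin + HGF, where library 1 was lowest (log2 fold change -3.23, SE 0.774). ZNF132 had 0.95, 0.89 and 0.93 FPKM in control libraries and 0.15, 0.04 and 0.21 FPKM with activin + HGF (log2 fold change -2.45, SE 0.499). ZNF225 had 0.94 to 1.11 FPKM in control libraries and 0.02, 0.24 and 0.22 FPKM with activin + HGF (log2 fold change -2.42, SE 0.678), and its call was lost without NC library 1 or NC library 3. ZNF765 had 0.42 to 0.55 FPKM in control libraries and 0.07 to 0.10 FPKM with activin + HGF (log2 fold change -2.23, SE 0.318). ZNF100, at the end of the cluster from ZNF85, had 1.24, 0.92 and 0.92 FPKM in control libraries and 0.15, 0.29 and 0.35 FPKM with activin + HGF (log2 fold change -1.68, SE 0.396), and ZNF527 had 0.26 to 0.40 and 0.08 to 0.12 FPKM (log2 fold change -1.36, SE 0.402), a call lost in 7 of 19 alternatives, among them the removal of any control library and of Activin+HGF library 1 or 2. In all of these, as in all 45 members that fell, the Activin+HGF libraries were below every control library. For ZNF112, ZNF302, ZNF132 and ZNF225 this was a condition of being named, so it is not a separate result.

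A pair of members had no count in any Activin+HGF library. ZNF709 had 51, 29 and 83 counts in control libraries and 61, 25 and 100 with activin. With a floor of 3 counts per library it was at least 13.9-fold lower than in NC and at least 15.5-fold lower than in Activin. Of its transcript's 50-base windows, 92.0% also occur in transcripts of other genes, mostly AC008758.1, so its reads are uncertain. The pseudogene ZNF807P had 24, 12 and 22 counts in control libraries and 18, 23 and 17 with activin, and was at least 5.11-fold lower than in NC. Counts of 1 to 40 were multiples of 4 in 35.0% of cases, where an even spread gives 25%, so a count need not be 1 fragment and these bounds are approximate. Over the members, 59 shared at least 10% of their windows with other genes and 8 at least 50%, and without those 8 there were 42 members that fell and 4 that rose.

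**Figure D5:**
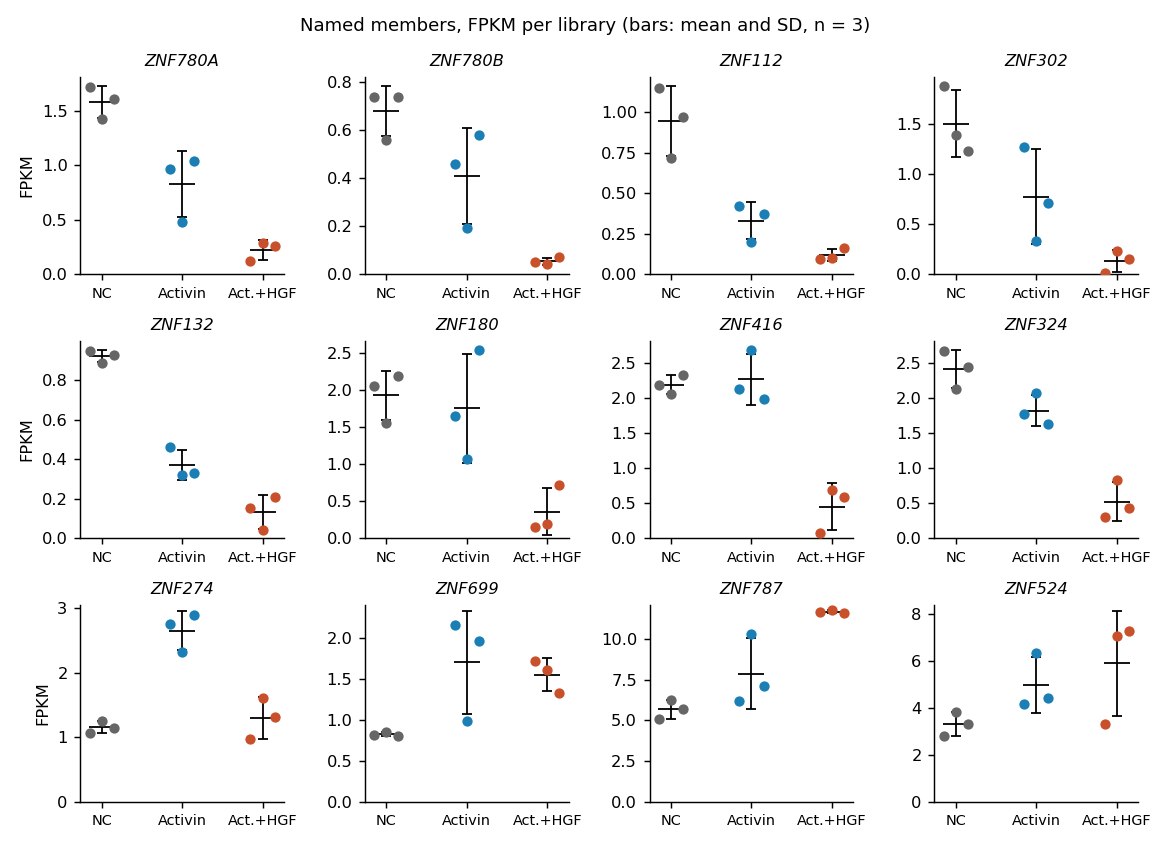
FPKM of 12 named members in each library (vertical axes, linear from 0, one scale per gene) by group (horizontal axis), with the mean and SD of the 3 libraries as bars. In ZNF780A, ZNF112 and ZNF132 the 3 groups do not overlap, in ZNF180, ZNF416 and ZNF324 the Activin+HGF libraries lie below all others, ZNF274 is highest with activin, and ZNF787 is highest with activin + HGF, at 11.60 to 11.76 FPKM.

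Few members rose over the full treatment. ZNF787 (chr19:56087366-56121295, minus strand), with 7 fingers and no KRAB motif, had 5.09, 6.24 and 5.71 FPKM in control libraries, 6.19, 10.32 and 7.11 with activin and 11.69, 11.76 and 11.60 with activin + HGF. It was 2.53-fold higher in Activin+HGF than in NC (SE 0.251 on the log2 scale, edgeR adjusted p = 0.00296). ZNF628 had 0.38, 0.68 and 0.42 FPKM in control libraries and 0.89, 1.20 and 0.89 with activin + HGF (log2 fold change 1.29, SE 0.389). ZNF524 had 2.8, 3.81 and 3.30 FPKM in control libraries and 3.33, 7.08 and 7.29 with activin + HGF (log2 fold change 1.10, SE 0.317), so in FPKM its libraries overlapped although in CPM they did not. These 3 calls were lost with the GC offset, and those of ZNF628 and ZNF524 were lost in 9 of 19 alternatives each. Library totals in place of TMM factors ended both, as did leaving out NC library 1 or 3 or Activin+HGF library 2, and also Activin+HGF library 1 for ZNF628 and library 3 for ZNF524. ZNF699, a KRAB gene, had 0.81 to 0.85 FPKM in control libraries and 1.72, 1.61 and 1.33 with activin + HGF (log2 fold change 1.22, SE 0.265, edgeR adjusted p = 0.0063), and its call held with the GC offset. It was lost with library totals.

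The promoter of ZNF787 is shown for comparison with those of the genes that fell.
ZNF787 (chr19:56121246-56121545, minus strand): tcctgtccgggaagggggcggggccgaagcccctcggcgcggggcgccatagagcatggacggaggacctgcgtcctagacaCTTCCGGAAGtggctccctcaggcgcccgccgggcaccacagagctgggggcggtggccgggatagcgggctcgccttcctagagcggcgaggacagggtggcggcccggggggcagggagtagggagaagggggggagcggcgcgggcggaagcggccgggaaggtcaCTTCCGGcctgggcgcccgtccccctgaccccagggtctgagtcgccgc
It held CCGGAAG at 3 places, 2 of which overlap on opposite strands.

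Activin against NC compared cells given activin alone with the control. Here 3 members fell and 1 rose, beside 4.62% of all tested genes called lower and 6.78% called higher. The median log2 fold change of the members was -0.17. In 37 members every Activin library was below every control library, which is 21.5% of the members and 21.3% of all tested genes. With library totals in place of TMM factors 1 member fell and 3 rose, and with the GC offset 1 fell and 4 rose. Without NC library 1 none fell and 2 rose, and without NC library 3, 1 fell and 1 rose. The members that fell were ZNF112, ZNF780A and ZNF440, a KRAB gene with 1.76, 1.9 and 2.51 FPKM in control libraries, 1.05, 0.72 and 1.22 with activin and 0.26, 0.41 and 0.75 with activin + HGF. Its log2 fold change with activin was -1.14 (SE 0.333, edgeR adjusted p = 0.0391), a call lost in 12 of 19 alternatives.

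ZNF274 was the member that rose with activin. This KRAB protein binds the 3′ ends of other zinc finger genes and recruits SETDB1 to them. ZNF274 (chr19:58183029-58213562, plus strand) had 1.07, 1.25 and 1.15 FPKM in control libraries, 2.75, 2.32 and 2.89 with activin and 0.97, 1.61 and 1.31 with activin + HGF. Every Activin library was above every library of the other groups. It rose 2.16-fold with activin (SE 0.192 on the log2 scale, edgeR adjusted p = 0.0034), and its log2 fold change was -0.67 in Activin+HGF against Activin (SE 0.190, edgeR adjusted p = 0.0447), under the fold limit. Its transcript shared no 50-base window with another gene. Its promoter, shown because ZNF274 was alone among the members in rising with activin, held CCGGAAG at 2 places.
ZNF274 (chr19:58182811-58183110, plus strand): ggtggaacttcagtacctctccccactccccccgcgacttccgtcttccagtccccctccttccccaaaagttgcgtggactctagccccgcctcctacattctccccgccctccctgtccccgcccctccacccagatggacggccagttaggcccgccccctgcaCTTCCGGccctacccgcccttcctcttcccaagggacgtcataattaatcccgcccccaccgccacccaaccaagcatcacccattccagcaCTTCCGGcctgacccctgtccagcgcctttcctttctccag

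Activin+HGF against Activin compared cells given HGF after activin with cells given activin alone, a step that also holds the later time. Here 17 members fell and 1 rose, beside 4.21% of all tested genes called lower and 3.87% called higher. The 17 are 9.88% of the members. The median log2 fold change of the members was -0.60, and in 50 members every Activin+HGF library was below every Activin library, which is 29.1% of the members and 15.6% of all tested genes. Of the 139 KRAB members 15 fell and none rose, with 10 that fell without Activin+HGF library 1 and 26 without Activin library 2. This count depended on single libraries. Without Activin library 2, 28 members fell and 5 rose. Without Activin library 1 or library 3, 7 fell in each case, and without Activin+HGF library 1 or library 2, 11 fell in each case. Without Activin library 2 and Activin+HGF library 1 together, 27 fell and 7 rose. The control libraries entered the shared estimate of the spread, and with only the Activin and Activin+HGF libraries in the fit 6 members were called in place of 18. The 3 comparisons share libraries and are not independent.

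ZNF416, ZNF180 and ZNF181 fell in this comparison and were not called in Activin against NC. ZNF416 had 2.19, 2.06 and 2.34 FPKM in control libraries, 2.13, 2.69 and 1.99 with activin and 0.07, 0.69 and 0.59 with activin + HGF, where library 1 was lowest. Its log2 fold change was -2.03 against Activin (SE 0.560, edgeR adjusted p = 0.0402) and -0.02 in Activin against NC (SE 0.535). Over the full treatment it was -2.04, a call lost without NC library 3. The call against Activin was lost when any of the 3 Activin libraries, or Activin+HGF library 2 or library 3, was left out. ZNF180 had 1.56 to 2.19 FPKM in control libraries, 1.65, 1.07 and 2.54 with activin and 0.15, 0.19 and 0.72 with activin + HGF (log2 fold change -1.91 against Activin, SE 0.511). ZNF181 had 0.69, 0.30 and 0.66 FPKM with activin and 0.03, 0.09 and 0.19 with activin + HGF (log2 fold change -2.03, SE 0.523). The calls of ZNF180 and ZNF181 were lost without Activin library 1 or 3 and without Activin+HGF library 1 or 2.

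ZNF324 and ZNF611 lost this call under fewer alternatives, 3 and 2 of 19. ZNF324 had 2.68, 2.13 and 2.45 FPKM in control libraries, 1.77, 2.07 and 1.63 with activin and 0.30, 0.83 and 0.43 with activin + HGF (log2 fold change -1.47 against Activin, SE 0.319, edgeR adjusted p = 0.0173), a call lost without Activin+HGF library 3. ZNF611 had 0.78, 0.47 and 0.62 FPKM with activin and 0.11, 0.19 and 0.18 with activin + HGF (log2 fold change -1.56, SE 0.316, edgeR adjusted p = 0.014), a call lost without Activin library 1. The member that rose, ZNF576, had 0.99, 1.45 and 1.18 FPKM with activin and 2.09, 1.80 and 1.85 with activin + HGF, beside 2.11, 2.03 and 1.44 in control libraries. Its log2 fold change was 1.03 (SE 0.278, edgeR adjusted p = 0.0368), and the call was lost in 11 of 19 alternatives.

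Over the 3 groups, the order NC, Activin, Activin+HGF from the highest to the lowest mean CPM was seen in 82 of 172 members (47.7%) and in 23.1% of all tested genes. The reverse order was seen in 12 members (6.98%) and in 22.2% of all tested genes. Activin was highest and Activin+HGF lowest in 41 members (23.8%), 38 of them with a KRAB motif, and in 14.6% of all tested genes.

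Members with a known role varied. ZNF417 and ZNF587, near-identical KRAB proteins that bind endogenous retroviruses of the HERV-K family, can share reads, since 40.2% and 37.9% of their windows occur in other genes. ZNF417 had 1.3, 1.21 and 1.27 FPKM in control libraries and 0.29, 0.46 and 0.53 with activin + HGF and fell (log2 fold change -1.27, SE 0.322, edgeR adjusted p = 0.0135). ZNF587 had 1.27 to 1.72 FPKM in control libraries and 0.79 to 1.33 with activin + HGF and did not pass (log2 fold change -0.19, SE 0.269). ZNF91, which binds SVA retrotransposons, had 0.44 to 0.75 FPKM in control libraries and 0.20 to 0.31 with activin + HGF and did not pass (log2 fold change -0.87, SE 0.382). ZNF175 had 1.68 to 1.77 FPKM in control libraries and 0.60 to 0.90 with activin + HGF. Its adjusted p in edgeR was 0.0187 with a log2 fold change of -0.83, short of the fold limit.

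ZNF808, a KRAB protein that binds MER11 elements, had 0.72 to 0.81 FPKM in control libraries and 0.45, 0.74 and 0.72 with activin + HGF, with a log2 fold change of 0.00 (SE 0.246). ZNF350, also known as ZBRK1 and a partner of BRCA1, had 0.44 to 0.49 FPKM in control libraries and 0.30 to 0.37 with activin + HGF (log2 fold change -0.19, SE 0.338). ZNF224 and ZNF649 had log2 fold changes of -1.07 (SE 0.607) and -1.42 (SE 0.662) and did not pass. ZNF224 ranged from 0.25 FPKM in Activin library 2 to 2.53 FPKM in Activin library 3, within 1 group. ZNF331 and ZNF382, with 43 and 23 counts over the 9 libraries, were under the count minimum, and ZNF93 was not analysed here.

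Some members jumped between libraries of 1 group. ZNF264 had 2.42, 2.29 and 0.08 FPKM in control libraries and 0.16, 3.09 and 0.12 with activin + HGF, against 4.15, 2.82 and 4.11 with activin. Among members with at least 0.5 FPKM in a group, 3 of 123 in the control, 7 of 116 in the Activin and 3 of 74 with activin + HGF differed at least 5-fold between the highest and the lowest library.

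The KRAB partners were examined as a list of 31 genes, all of which were tested. TRIM28 itself had 99.89, 114.26 and 95.30 FPKM in control libraries, 61.42, 86.44 and 59.22 with activin and 64.02, 78.57 and 77.46 with activin + HGF. Every treated library was below every control library in FPKM, and the log2 fold change of -0.20 in Activin+HGF against NC (SE 0.211) did not pass. SETDB1 had 5.73 to 6.74 FPKM in control libraries and 2.68 to 3.70 with activin + HGF, with a log2 fold change of -0.60 (edgeR adjusted p = 0.0152), short of the fold limit. In Activin+HGF against NC 10 of the 31 partners (32.3%) fell and none rose, beside the 10.2% of all genes called lower, and their median log2 fold change was -0.75. With the GC offset 7 fell, and without Activin+HGF library 2 or library 3, 8 fell in each case. Without Activin+HGF library 1, 12 fell, and with library totals 15 fell. TASOR, a subunit of the HUSH silencing complex, had 4.19 to 5.97 FPKM in control libraries, 4.85, 1.77 and 4.34 with activin and 0.36, 1.42 and 0.91 with activin + HGF (log2 fold change -2.19, SE 0.427, edgeR adjusted p = 0.00368). PPHLN1, another HUSH subunit, also fell (log2 fold change -1.17).

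The list was made of corepressor and heterochromatin factors, so a role shared by those that fell is not a result. The other partners that fell included the methyltransferases SUV39H1 and SUV39H2, with log2 fold changes of -1.88 and -1.84, and the heterochromatin protein CBX5 with -1.02. The chromatin remodellers SMARCAD1 and ATRX had -1.58 and -1.14. The rest were the DNA methyltransferase DNMT1 with -1.22, its cofactor UHRF1 with -1.3, and TRIM24, a relative of TRIM28, with -1.55. In Activin against NC, UHRF1, SUV39H1 and EHMT2 fell and none rose, which is 9.68% of the partners beside the 4.62% of all genes called lower. In Activin+HGF against Activin, TASOR fell and none rose, which is 3.23% of the partners beside 4.21% of all genes. That call was lost without Activin+HGF library 1 or 3, without Activin library 1 or 3, and with only these groups in the fit. Without Activin library 2, 5 partners fell and 1 rose in this comparison, and with library totals 5 fell.

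Nuclear RNA and mitochondrial counts were set beside the members, and their part in the results was not tested. MALAT1, NEAT1, KCNQ1OT1, TUG1 and OIP5-AS1 took together 233 to 335 CPM in control libraries, 216 to 518 CPM with activin and 262 to 501 CPM with activin + HGF. Activin library 2, with low member levels, had the lowest of these sums, and Activin+HGF library 1, where member levels were lowest, had the highest of its group. Mitochondrial genes took 18.0% to 20.1% of counts in control libraries, 15.1% to 17.2% with activin and 15.2% to 15.7% with activin + HGF.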

How the data were processed

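Total RNA of HCT116 cells was depleted of ribosomal RNA and sequenced as paired ends. Per the labels, the submitters' processing notes name cutadapt 1.9, HISAT2 2.0.4 and StringTie 1.3.4d. The deposited table holds a whole-number count, not normalized, and an FPKM value per gene and library, as the authors made them, and how the counts were derived is not given in the sources used here. The strand used in counting and the build are not given in the sources used here. Coordinates matched GRCh38, since 32890 of the 32930 genes found in GENCODE 29 overlapped the gene of the same identifier there. All 172 members were found in it, and 143 had the same start or end. Antisense and overlapping genes cannot be told apart. Depth was 57453977 to 77016167 counts per library, and floors cover counting error only.

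Counts were tested with edgeR 4.0.16 in R 4.3.3 (filterByExpr, TMM factors, quasi-likelihood test, all 9 libraries in 1 model of group means), with Benjamini-Hochberg adjustment over 20988 genes. FPKM served to compare levels between genes and to show the level in each library, and it carries no TMM factor. CPM was computed from the counts with TMM factors. KRAB motifs and finger counts were read from translated GENCODE transcripts in place of the RefSeq proteins planned, which were not used here, and the KRAB pattern was loosened after values were seen. ZNF714 and ZNF180 lack a match, which does not show that they lack the domain. Promoters came from RefSeq, GRCh38.p14. The fit was tested on simulated data.

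The members and the lists were chosen with earlier results of these data known. Named members were, per comparison, up to 6 called members with the largest change in each direction, groups not overlapping in CPM and at least 0.5 FPKM in the higher group, the 6 most abundant members, the member with the smallest p in each cluster of at least 5, and a list of known roles. Alternatives were other normalizations (library totals, DESeq2's size factors), no count filter, the replicate number as a block, each comparison alone, each library left out, DESeq2 1.42.0, limma 3.58.1 on log2(FPKM + 0.1) and log2(FPKM + 1), and other thresholds. A GC offset, a GC and length offset, counts divided by 4 and the joint removal of Activin library 2 and Activin+HGF library 1 were added after seeing the data. Replicate libraries differed from each other beyond sampling noise, so none was counted as a duplicate.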

Additional observations from a re-analysis of the deposited data

How the results depend on the processing

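The median log2 fold change of the members kept its sign in all 57 values, 19 alternatives for each of 3 comparisons, from -1.12 to -0.32 in Activin+HGF against NC, from -0.95 to -0.28 in Activin+HGF against Activin and from -0.25 to -0.04 in Activin against NC. The number of members called moved more, and the cause was not tested. It was 49 in Activin+HGF against NC, and 29 to 48 with each library left out in turn, lowest without NC library 3 (29). It fell to 13 with limma on log2(FPKM + 1) and to 21 at an adjusted p under 0.01. It was 18 in Activin+HGF against Activin, and 7 to 33 with each library left out, with 33 without Activin library 2, 7 without Activin library 1 or 3, and 11 without Activin+HGF library 1. It was 28 with library totals, 6 with only these groups in the fit, 3 with limma on log2(FPKM + 1), 4 at an adjusted p under 0.01 and 34 without Activin library 2 and Activin+HGF library 1 together. It was 4 in Activin against NC, and 2 to 5 with each library left out, with 2 without NC library 1 or NC library 3. It was 2 without the count filter, 8 with only these groups in the fit, 8 with counts divided by 4, 10 with DESeq2, 8 without those 2 libraries, 7 with no fold limit and 1 at an adjusted p under 0.01. With limma on log2(FPKM + 1) it was 0, with 13 members at an adjusted p under 0.05 and 35 at an unadjusted p under 0.05. Library totals moved the median of all genes to -0.38 in Activin+HGF against Activin and -0.30 in Activin+HGF against NC on the log2 scale, from -0.04 and -0.03. With a replicate block the counts in these 3 comparisons were 46, 14 and 3. The correlations of same-numbered libraries ran from -0.0606 to 0.0882, so the libraries share only a number. Of 38 calls of named members, 33 were lost under at least 1 alternative, 30 of them with limma on log2(FPKM + 1), and none turned direction. With that alternative set aside, 19 of the 38 were still lost under at least 1 other. Members are weakly expressed, with a median of 0.745 FPKM, so a pseudocount of 1 FPKM compresses their changes.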
